A study of Mus musculus with 15 samples.

Results

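The units described here are those of the cytosolic ribosomal protein genes, which encode the protein part of the ribosomes that translate nuclear messenger RNA. They were chosen by name: a transcription unit of the deposited table was a member if one of its gene symbols was an Rpl or Rps symbol with a number (with a final a, x or l allowed), or Rplp0, Rplp1, Rplp2 or Rpsa, and symbols marked as pseudogenes were left out. This gave 89 of 65522 units, which carry 81 symbols, 56 units of the large subunit and 33 of the small subunit. A unit is a locus assembled from the reads, 8 symbols have 2 units at the same coordinates, and such units are given here with their identifier. Of the 81 symbols, 79 are protein coding in the GENCODE annotation of the same build, and Rpl6l and Rps4l are listed there as processed pseudogenes.

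A ribosome carries a single copy of most of these proteins. Their genes are among the most highly transcribed of growing cells, with levels that are usually close to one another. Their messenger RNAs begin with a C followed by a run of pyrimidines, the 5′ terminal oligopyrimidine tract, through which mTOR signalling and the RNA-binding protein LARP1 set their translation. Many are also hosts of small nucleolar RNAs in their introns, and their abundance has many processed pseudogenes as a by-product, which makes reads of one gene easy to place on another locus.

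Poly(A)-selected RNA was sequenced from 15 populations of female C57BL/6 mouse embryonic fibroblasts, cells grown out of single embryos of day 13 to 14, and the values are FPKM, fragments scaled by transcript length and by the number of fragments mapped. Primary cells were before passage 5, and culture-adapted cells were lines that emerged from such populations after long passage. The groups were WT primary (S01, S02 and S03), WT adapted (S07, S08 and S09), CIZ1 null primary (S04 and S05), CIZ1 null primary with an inducible CIZ1 transgene and untreated (S06 and S13), the same genotype given doxycycline at 5 to 10 μg/ml (S14 and S15), and CIZ1 null adapted (S10, S11 and S12). CIZ1 null cells are homozygous for a gene trap in Ciz1, which encodes a nuclear protein that collects on the inactive X chromosome, and the transgene adds GFP-CIZ1 through a transactivator. Doxycycline was given for 24 h. S04, S05 and S06 were used as the 3 CIZ1 null primary populations. The per-line tables of the study tie each of these 12 populations to an embryo, so that each adapted line has its own primary population: S07 goes with S02, S08 with S03, S09 with S01, S10 with S05, S11 with S06 and S12 with S04. By this match S11 comes from the embryo whose primary population is labelled as transgenic, although its own label gives no transgene.

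Ciz1 itself was at 18.7 to 25.0 FPKM in the 6 WT samples, at 0.0546 to 0.724 FPKM in the 7 CIZ1 null samples without doxycycline, and at 296 and 191 FPKM in S14 and S15. All 10 fibroblast markers were at 1 FPKM or more in the primary samples and 8 to 10 of them in the adapted lines, with sums of 7667 to 12220 FPKM and 3557 to 7778 FPKM. Markers of other cells were low: the sum over 4 epithelial markers was 1.32 to 17.8 FPKM in primary and 0 to 1.38 FPKM in adapted samples, that over 4 endothelial markers 1.27 to 5.30 and 0.363 to 4.88 FPKM, over 4 macrophage markers 2.99 to 16.6 and 1.81 to 4.25 FPKM, over 4 muscle markers 12.2 to 34.1 and 0.0660 to 0.906 FPKM, over 4 neural markers 8.27 to 43.7 and 0.135 to 12.8 FPKM, and over 5 erythroid markers 4.72 to 51.3 and 3.899 to 12.04 FPKM. These levels move with adaptation, and their part in the results below was not tested. In bulk RNA fewer cells of a type and less RNA per cell cannot be told apart. S04 stands apart by 1 unit, Cbx3-ps5, at 70181 FPKM and listed at 0 in the other 14 samples. Absolute read depth is not known here, but the smallest steps between low values place the depth of the samples between 0.481 and 1.63 times that of S01.

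The table of RefSeq starts (GRCm38.p6) held 59 of the 81 symbols. Windows were the 30 bases from 10 before to 20 from the listed start on, read on the strand with the letters of the messenger RNA. A run of at least 6 pyrimidines that begins with C lay there, at any of a gene's listed starts, for 35 of these 59 symbols (59.3%). It did so for 24.9% of all 27025 symbols in the table. Read on the opposite strand, the same windows held such a run for 11.9% of the member symbols and 28.3% of all symbols. A match within 30 bases is a description of the letters and not of a start site, since listed starts can lie some bases away from the true one. The windows of 6 genes that were lower after adaptation (below) are shown because they are the members that the tests turn on. Capitals mark such runs, and the run of Rps19 lies at another of its listed starts.
Rpl11, chr4:136053374-136053403, minus strand: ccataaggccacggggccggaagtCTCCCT
Rpl18, chr7:45718061-45718090, plus strand: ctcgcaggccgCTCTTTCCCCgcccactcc
Rplp2, chr7:141447641-141447670, plus strand: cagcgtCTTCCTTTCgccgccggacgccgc
Rps15a, chr7:118116128-118116157, minus strand: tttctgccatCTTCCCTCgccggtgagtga
Rps19, chr7:24884582-24884611, plus strand: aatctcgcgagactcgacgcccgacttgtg
Rpl39l, chr16:10170218-10170247, plus strand: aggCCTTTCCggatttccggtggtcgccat

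The member units were high throughout. Of the 89 units, 42 had a mean of at least 1000 FPKM over the 15 samples, 34 a mean of 100 to 1000 FPKM, 10 a mean of 1 to 100 FPKM and 3 a mean under 1 FPKM, and 51 of the 100 units with the highest mean in the whole table were members. Together the members held 11.5% to 17.9% of the summed FPKM of a sample. The lowest share was that of S04, whose total of 700699 FPKM includes 70181 FPKM of Cbx3-ps5. The highest was the main unit of Rplp1, a protein of the acidic stalk that recruits elongation factors, with a mean of 3304 FPKM and a range of 2143 to 5008 FPKM. It was followed by Rpl41, the shortest ribosomal protein, at 2392 FPKM (1533 to 3448), Rps26, a small-subunit protein beside the messenger RNA exit, at 2343 FPKM (1929 to 3115), and Rpsa, a small-subunit protein also known as the laminin receptor, at 1969 FPKM (1409 to 2779). Rpl18, Rps24, Rpl35 and Rps16 completed the 8 highest with means of 1893, 1860, 1850 and 1849 FPKM. The spread of members between samples of a group was near that of other high units in primary cells. In adapted lines it was below that of the other high units, although higher than in primary cells of the same genotype. The median SD of members on the log2(FPKM + 1) scale was 0.15 in WT primary, 0.23 in CIZ1 null primary, 0.2308 in WT adapted and 0.29 in CIZ1 null adapted samples. Over the 874 other units with a mean of at least 100 FPKM it was 0.13, 0.19, 0.37 and 0.41. The 86 members counted here include units with a mean under 100 FPKM, so the sets differ in their lowest level.

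Culture adaptation of WT cells was the comparison with the most member calls, and all were downward. The values were tested as log2(FPKM + 1) with limma, a Benjamini-Hochberg adjustment was made over every unit in the test, and a unit with an adjusted p under 0.05 was called. Of 85 members tested, 7 fell and 0 rose, beside a background of 6.68% of all 19919 units tested that were called lower and 2.87% called higher. The share of members called lower, 7 of 85, is near that background. The 4 members not tested, Rpl10l, both units of Rpl3l and the lower unit of Rpl39l, had a mean under 1 FPKM in these samples. The 7 units were Rpl11, Rpl18, Rplp2, Rps15a and Rps19, the lower of the 2 units of Rplp1 (XLOC_058135) and the higher of the 2 units of Rpl39l (XLOC_020839).

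Rpl11 encodes a large-subunit protein that, with Rpl5 and the 5S ribosomal RNA, also binds and restrains Mdm2, the ubiquitin ligase of p53. It was at 1212, 1030 and 1020 FPKM in the WT primary samples S01, S02 and S03 and at 595, 592 and 534 FPKM in the WT adapted lines S07, S08 and S09. It was at 1055, 1162 and 1445 FPKM in S04, S05 and S06 and at 553, 576 and 497 FPKM in the CIZ1 null adapted lines. Every adapted line was below every primary sample, and S13, S14 and S15, at 928, 1258 and 970 FPKM, were also above all adapted lines. The difference on the log2(FPKM + 1) scale was -0.92 ± 0.14 (SE, n = 3 per group, adjusted p = 0.0196 by limma) in WT and -1.16 ± 0.19 (adjusted p = 0.0307 by limma) in CIZ1 null cells.

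Rplp2, another protein of the acidic stalk, was at 1633, 1373 and 1437 FPKM in WT primary samples and at 891, 804 and 791 FPKM in WT adapted lines. In the CIZ1 null samples it was at 1341, 1416 and 1947 FPKM in the primary samples and at 841, 1286 and 907 FPKM in the adapted lines, with S11 highest. S13, S14 and S15 were at 1084, 1764 and 1138 FPKM, so that S13 and S15 were below S11. The 3 primary samples of each comparison did not overlap the adapted lines, and the difference was -0.84 ± 0.14 (adjusted p = 0.0218 by limma) in WT and -0.64 ± 0.24 (adjusted p = 0.148) in CIZ1 null cells. The same order was seen in both units of Rplp1, another stalk protein. The lower unit, XLOC_058135, was at 132, 91.7 and 88.3 FPKM in WT primary samples and at 49.6, 36.8 and 51.7 FPKM in WT adapted lines, and in CIZ1 null cells it was at 88.6, 128 and 151 FPKM in primary samples and at 32.9, 52.6 and 45.6 FPKM in adapted lines. Its difference was -1.15 ± 0.23 (adjusted p = 0.0340 by limma) in WT and -1.46 ± 0.28 (adjusted p = 0.0419 by limma) in CIZ1 null cells. The main unit of Rplp1, with the same coordinates and 26.2 to 65.8 times the level of the lower unit in single samples, was not called, with differences of -0.49 ± 0.16 (adjusted p = 0.0978 by limma) and -0.62 ± 0.24 (adjusted p = 0.147). The table gives no strand for either unit, and how reads were divided between them was not tested. Rplp0, the protein on which the stalk is built, was at 1627 to 1823 FPKM in WT primary and 1421 to 1683 FPKM in WT adapted samples, with a difference of -0.16 ± 0.13 (adjusted p = 0.456 by limma).

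Rps19, a small-subunit protein needed for maturation of the subunit and often mutated in Diamond-Blackfan anaemia, was at 2152, 1733 and 2012 FPKM in WT primary samples and at 1398, 901 and 841 FPKM in WT adapted lines. Its groups do not overlap, and the difference of -0.94 ± 0.22 (adjusted p = 0.0499 by limma) lies at the threshold. Rps15a, a small-subunit protein that binds early in assembly, was at 1267, 782 and 904 FPKM and at 574, 442 and 430 FPKM, a difference of -1.01 ± 0.23 (adjusted p = 0.0432 by limma). Rpl18, a large-subunit protein, was at 2443, 2116 and 2166 FPKM and at 1542, 1208 and 1214 FPKM, a difference of -0.77 ± 0.15 (adjusted p = 0.0340 by limma). Differences in CIZ1 null cells were -0.78 ± 0.26 for Rps19, -0.69 ± 0.25 for Rps15a and -0.83 ± 0.22 for Rpl18, with adjusted p of 0.113, 0.136 and 0.0751 by limma. All CIZ1 null adapted lines were below S04, S05 and S06 in each of these 3 genes, for Rps15a by the least (805 FPKM in S11 against 806 in S04). S13 and S15, at 660 and 717 FPKM, were below S11 for Rps15a, and S15, at 1500 FPKM, was below S11, at 1525 FPKM, for Rps19.

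**Figure D1:**
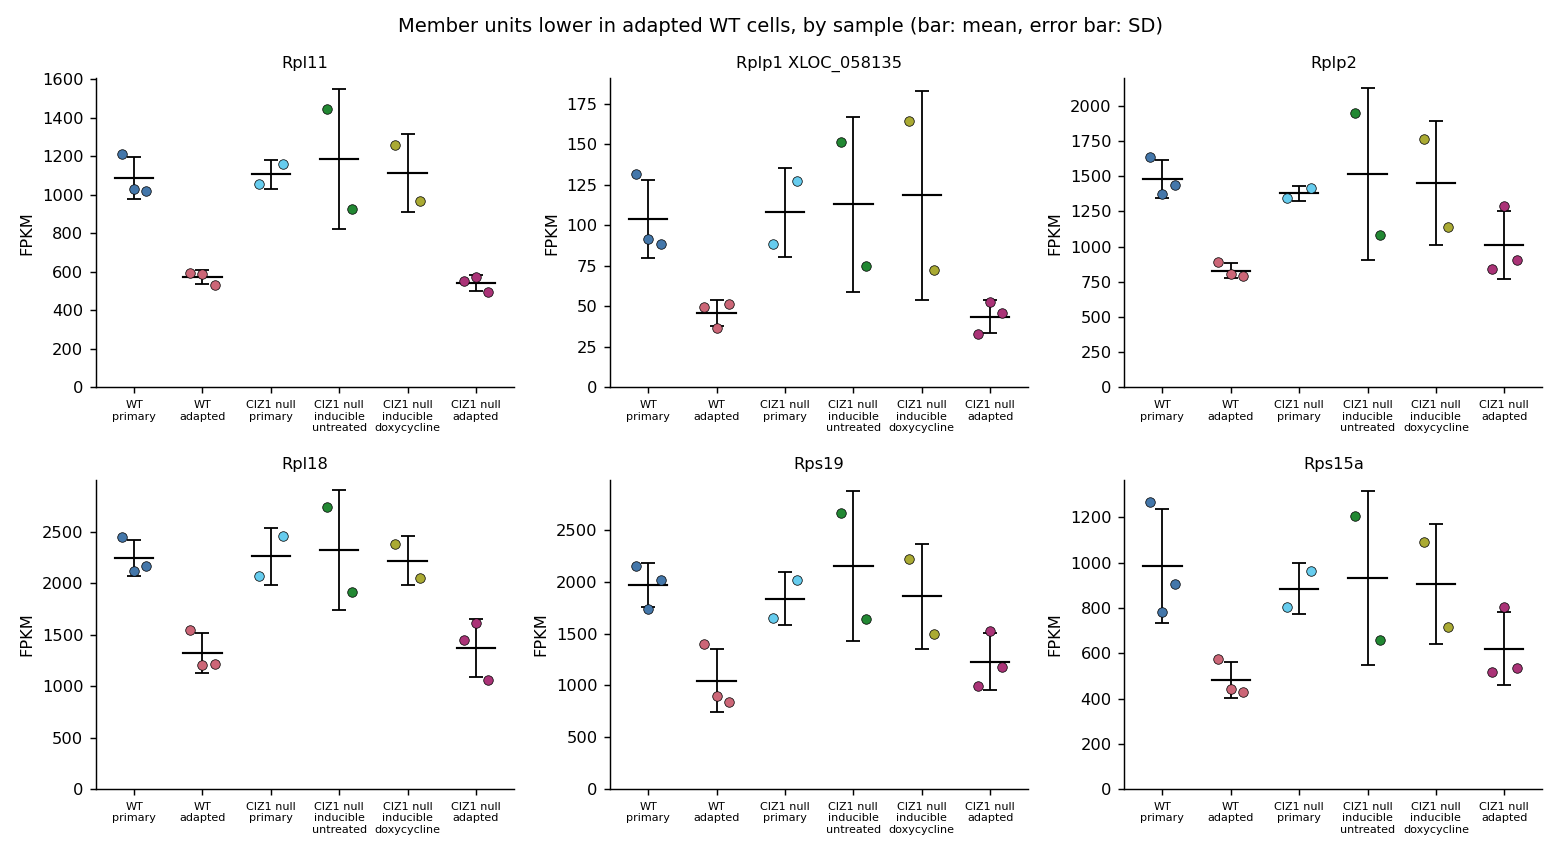
FPKM of 6 of the member units called in WT adaptation, by group of samples, with each dot a sample, the horizontal bar the mean and the error bar the SD. Rpl11 was at 497 to 595 FPKM in all 6 adapted lines and at 928 FPKM or more in the 9 primary samples.

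In CIZ1 null cells, Rpl11 and the lower unit of Rplp1 were the members called, 2 lower and 0 higher of 86 tested, beside 3.47% of all 20044 units called lower and 1.40% called higher. The difference of adaptation between the genotypes, tested as an interaction over the 12 samples, had 0 calls among the 86 members tested and 0 among all 20046 units (0%) by limma. At an unadjusted p under 0.05 the same test had 928 units and 0 members. A call in WT that is missing in CIZ1 null cells is therefore not shown to differ between them. Calls depend on single libraries. Without S01, S02, S03, S07, S08 or S09 in turn, 0, 1, 0, 11, 3 and 9 members were called in WT adaptation, and without S04, S05, S06, S10, S11 or S12, 0, 0, 0, 6, 3 and 0 in CIZ1 null adaptation. With the embryo as a replicate block, each adapted line was set against its own primary population. In that fit 1 member was called in WT (Rpl39l, listed at 0 in the 3 WT adapted lines) and 0 in CIZ1 null cells. With S04 and S05 as the only CIZ1 null primary samples, 0 members were called. The calls over all units in these fits are not set beside these counts. The swing is therefore not shown to be particular to the members.

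Over all members the shift was small and its sign depended on the scaling. The median difference of the 85 members was -0.23 in WT adaptation, with 64 below 0, beside -0.05 over all units. For CIZ1 null cells that of 86 members was -0.17, with 59 below 0, beside -0.04. When FPKM were rescaled to TPM, which sets every sample to the same total, the median of all units rose to 0.18 in both comparisons and that of the members to 0.02 and 0.06. In CIZ1 null cells the total of S04 includes Cbx3-ps5 at 70181 FPKM, which lowers all other TPM values of that sample. With quantile normalization both medians were at 0.06 in WT, and in CIZ1 null cells that of all units was at 0.06 and that of members at 0.05. Relative to the median of all units the members were thus at -0.18, -0.16 and 0.00 in WT and at -0.13, -0.12 and -0.01 in CIZ1 null cells under the 3 scalings. The WT calls turned from 7 lower to 4 lower and 2 higher with TPM and to 3 lower and 5 higher with quantile normalization, where all units moved by 0.23 and 0.11. Rpl39l, Rpl11 and Rplp2 were called lower under all 3 scalings. For Rpl39l, listed at 0 in the 3 WT adapted lines, a change of the total leaves the 0 in place, so its call with TPM is no support. Rps26 and Rps12, the latter a small-subunit protein of the beak named after its values were seen, were called higher under both of the other scalings but not with FPKM as deposited.

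Rps26 was at 2127, 2045 and 2032 FPKM in WT primary samples and at 2276, 2631 and 3115 FPKM in WT adapted lines, a difference of 0.36 ± 0.15 (adjusted p = 0.168 by limma). Rps12 was at 1093, 981 and 996 FPKM and at 1283, 1436 and 1302 FPKM, a difference of 0.39 ± 0.13 (adjusted p = 0.1004 by limma). These were the 2 members whose WT adapted lines all lay above the primary samples, and Rpl5 was the 1 such member in CIZ1 null cells. In WT adaptation 28 of 85 members (32.9%) had every adapted line below every primary sample, where 21.4% of all units did, and 2 members (2.35%) had every line above, where 17.3% of all units did. In the CIZ1 null comparison 24 of 86 members (27.9%) were lower without overlap, beside 19.6% of all units, and 1 (1.16%) higher, beside 17.5%. Here S04, S05 and S06 stand for the CIZ1 null primary cells. In both genotypes at once 16 of 85 members (18.8%) were lower without overlap, beside 12.6% of 19153 units, and 0 were higher, beside 9.27%. The excess of lower over higher members rests on FPKM as deposited. After rescaling to TPM, a count added after these values were seen, 14 members of 85 (16.5%) were lower without overlap in WT adaptation beside 13.9% of all units, and 17 (20%) higher beside 26.4%. In CIZ1 null adaptation 8 of 86 (9.30%) were lower beside 12% of all units, and 8 higher beside 26.8%. In both at once 5 of 85 (5.88%) were lower beside 6.99%, and 4 (4.71%) higher beside 16.3%. The CIZ1 null counts with TPM include S04, whose values are lowered by Cbx3-ps5, and the part of this unit was not tested.

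With FPKM as deposited the units lower without overlap in both genotypes included Rpl11, Rpl18, Rplp2, Rps15a, Rps19 and both units of Rplp1. Rps20, Rpl28 and Rps9, picked after their values were seen, were among the others. Rps20, a small-subunit protein of the head, was at 832, 750 and 729 FPKM in WT primary samples, 588, 388 and 420 FPKM in WT adapted lines, 659, 727 and 865 FPKM in S04, S05 and S06, and 346, 433 and 447 FPKM in CIZ1 null adapted lines. Its differences were -0.75 ± 0.19 and -0.88 ± 0.19, with adjusted p of 0.0589 and 0.0544 by limma. Rpl28, a large-subunit protein, was at 948, 638 and 765 FPKM and at 604, 387 and 322 FPKM in WT cells, and at 706, 825 and 935 FPKM and at 498, 613 and 509 FPKM in CIZ1 null cells. The differences were -0.87 ± 0.27 and -0.60 ± 0.19 (adjusted p = 0.0906 and 0.0997 by limma). Rps9, a small-subunit protein that binds early, had differences of -0.56 ± 0.17 in WT and of -0.51 ± 0.23 in CIZ1 null cells, with adjusted p of 0.0891 and 0.196 by limma.

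**Figure D2:**
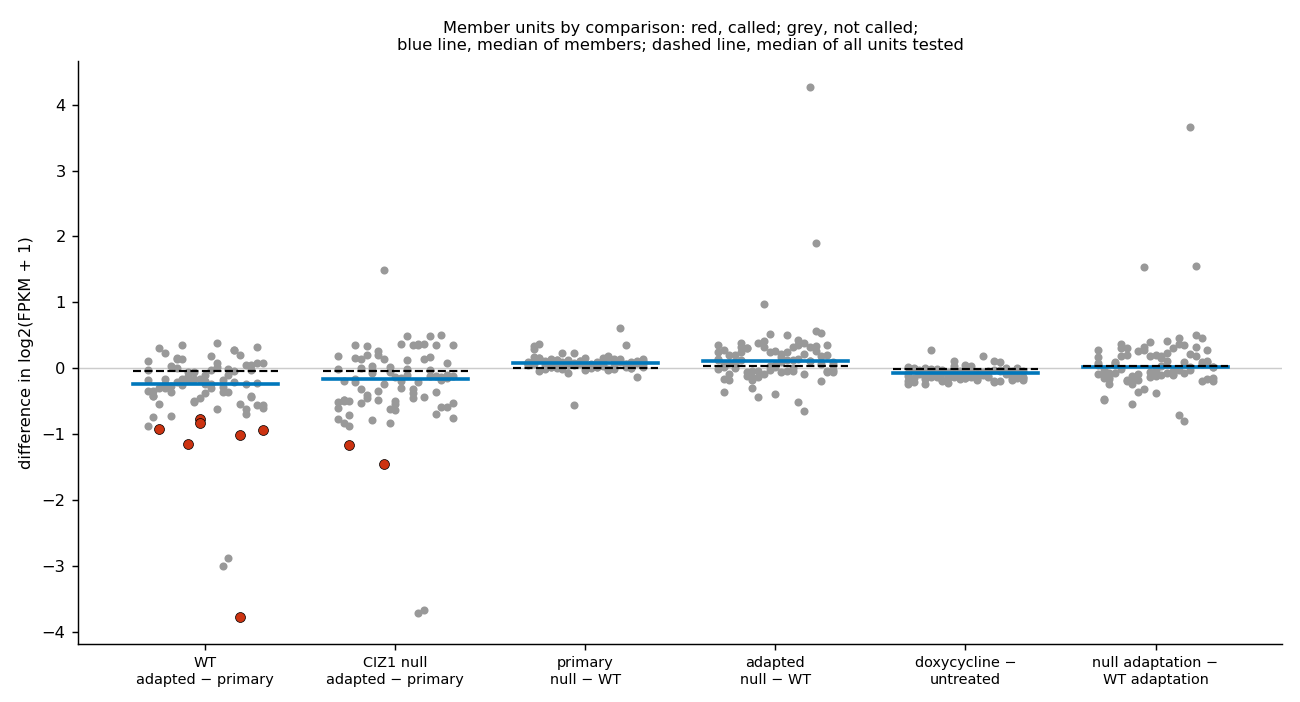
Difference in log2(FPKM + 1) of each member unit tested (dots) in each comparison, with calls in red, the median of the members as a blue line and the median of all units tested as a dashed line. The 7 and 2 calls of the adaptation comparisons all lie below 0, and the other 4 columns hold no call.

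Of the 7 members called in WT cells 5 lay on chromosomes 4 and 7, which hold 20 of the 85 members tested. Of all other units there 354 of 2655 were called lower, and 969 of 17179 elsewhere. With TPM 2 of the 4 lower member calls were on these chromosomes, and with quantile normalization 2 of 3. With FPKM as deposited, Rps15a, Rps19, Rplp2 and Rpl18 lie on chromosome 7 and Rpl11 on chromosome 4. Of the 16 members without overlap in both genotypes, 7 lie on chromosome 7 and 3 on chromosome 4. Those 16 include both units of Rplp1 and both of Rps4l. The share of all units without overlap was not counted by chromosome, so this is not shown to be particular to the members. These 2 chromosomes were singled out after the values were seen. All 14 members tested on chromosome 7 were below 0 in WT cells, with a median of -0.65, and all 14 in CIZ1 null cells, with a median of -0.56. With quantile normalization 12 and 11 of the 14 were below 0, with medians of -0.30 and -0.31, and with TPM also 12 and 11, with medians of -0.40 and -0.32. On chromosome 4 the medians of 6 members were -0.42 and -0.46 with FPKM as deposited. The members on all other chromosomes had a median of -0.17 (65 units) in WT and -0.11 (66 units) in CIZ1 null cells.

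The other units on these chromosomes were lower too. In WT adaptation the median of the 1362 other units tested on chromosome 7 was -0.39, with 72.2% of them below 0, and that of the 1293 other units on chromosome 4 was -0.35, with 73.4% below 0. The same medians were -0.28 and -0.41 in CIZ1 null cells. For chromosomes 4 and 7 together the WT medians of members and other units were -0.61 and -0.37, with quantile normalization -0.28 and -0.27, and with TPM -0.36 and -0.15. Over the other chromosomes together the median of non-member units was 0.00 in WT and 0.01 in CIZ1 null cells. Chromosome 16 was also low in WT (-0.36 over 610 other units) and less so in CIZ1 null cells (-0.12 over 629 units), and chromosome X was high in both (0.17 and 0.18). The 4 X-linked members, Rpl10, Rpl36a, Rpl39 and Rps4x, had medians of 0.23 and 0.37, and 0 of them was called. After the chromosome's median was taken away, Rpl11 was still at -0.57 in WT cells and at -0.75 in the CIZ1 null comparison. On the same scale Rps15a, Rps19, Rplp2 and Rpl18 were at -0.63, -0.56, -0.45 and -0.38 in WT. Rps6, the target of S6 kinase on chromosome 4, was at 0.12 in WT after the same step.

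**Figure D3:**
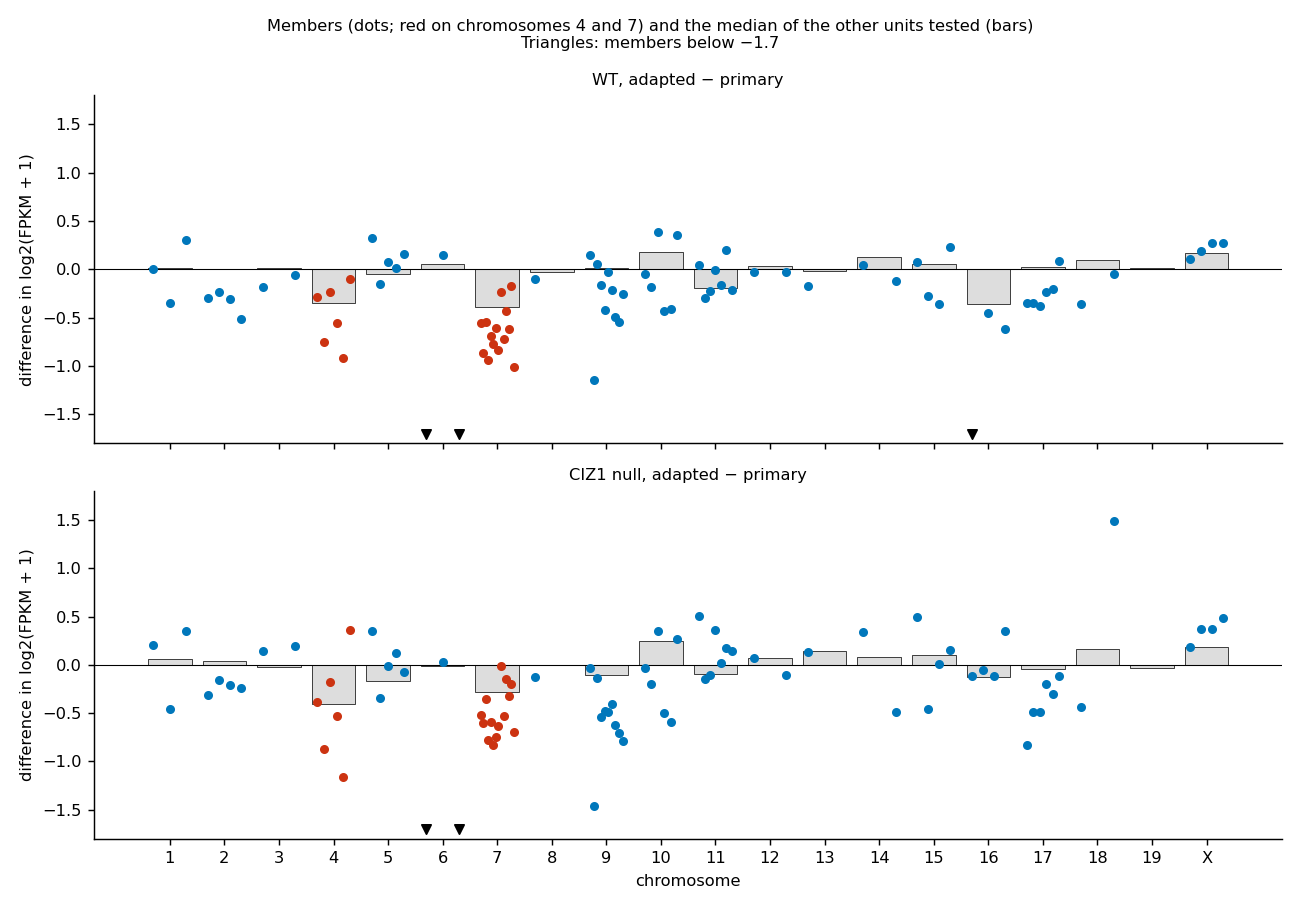
Difference in log2(FPKM + 1) between adapted and primary cells by chromosome, for WT (top) and CIZ1 null cells (bottom). Dots are member units, red on chromosomes 4 and 7, bars are the median of the other units tested, and triangles mark members below -1.7. The bars of chromosomes 4 and 7 lie between -0.28 and -0.41 in both panels.

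The same difference was seen line by line. Against the mean of the primary samples of their genotype, the 14 members on chromosome 7 had medians of -0.33, -0.78 and -0.86 in S07, S08 and S09 and of -0.72, -0.25 and -0.62 in S10, S11 and S12. The other units on chromosome 7 had medians of -0.11, -0.31 and -0.68 and of -0.25, -0.22 and -0.41 in the same lines. S09 was thus the lowest WT line in both, while S07 and S11 were nearest to the primary cells.

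A measure taken within each sample is hardly touched by the scaling of its total, namely the median log2(FPKM + 1) of members on chromosomes 4 and 7 less that of members on the other chromosomes. It was 0.35, 0.26 and 0.24 in the WT primary samples, 0.29, 0.30 and 0.28 in S04, S05 and S06, and 0.02 in S13. With doxycycline it was 0.40 in S14 and 0.05 in S15. In the adapted lines it was -0.20, -0.07 and -0.60 in WT and -0.13, -0.16 and -0.40 in CIZ1 null cells, below 0 in all 6 lines and above 0 in all 9 primary samples. Over all other units the same measure was -0.01 to 0.13 in primary samples and -0.18 to -0.61 in adapted lines. Chromosomes 4 and 7 were singled out after the values of these same samples were seen, so this separation is no support for a difference. The number of copies of each chromosome was not measured here, and its part in these values was not tested.

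**Figure D4:**
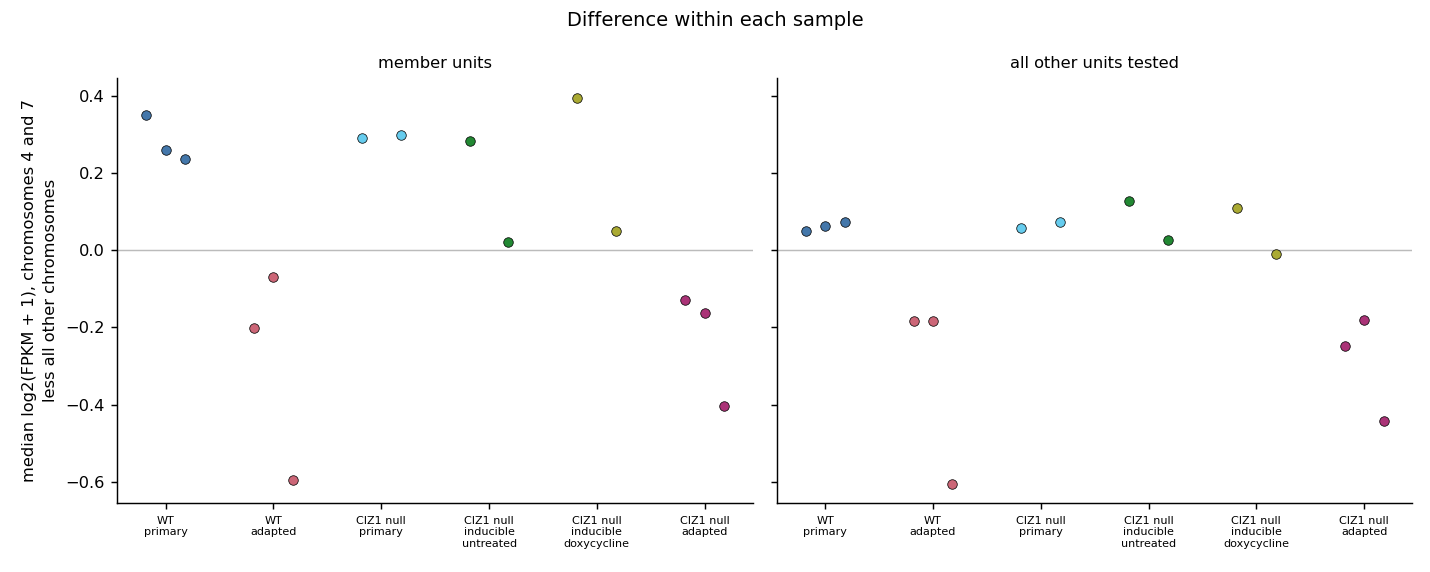
Median log2(FPKM + 1) of units on chromosomes 4 and 7 less that of units on all other chromosomes, for members (left) and all other units tested (right), with each dot a sample. For members the 6 adapted lines lie between -0.60 and -0.07 and the 9 primary samples between 0.02 and 0.40. The chromosomes were singled out after the values of these samples were seen.

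Few units were listed at 0 beside high values, and all of them were paralogues or processed copies. By the rule of 0 in at least 1 sample and at least 10 FPKM in another there were 3 such units, of Rpl39l and Rps4l, while 82 members were never at 0. Rpl39l is an autosomal paralogue of Rpl39 at the mouth of the exit tunnel that is best known from the testis. Its higher unit was at 24.5, 5.82 and 13.9 FPKM in WT primary samples, at 23.0, 19.0 and 17.96 FPKM in S04, S05 and S06, and at 13.4, 16.1 and 17.1 FPKM in S13, S14 and S15. It was listed at 0 in the 3 WT adapted lines and in S11, and was at 97.0 and 71.4 FPKM in S10 and S12. The CIZ1 null adapted lines thus lay both above and below all primary samples. The lower unit at the same coordinates was at 0 in the same 4 lines and at 8.27 and 4.62 FPKM in S10 and S12.

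The WT difference of this Rpl39l unit was called (adjusted p = 0.0132 by limma), and its size is set by the pseudocount, -3.78 with 1 and -6.99 with 0.1. In CIZ1 null adaptation it was -0.12 ± 1.68 (adjusted p = 0.968 by limma), in adapted CIZ1 null against adapted WT lines 4.26 ± 1.68 (adjusted p = 0.998), and in the test of the difference of adaptation 3.66 ± 1.92 (adjusted p = 0.996). These 3 differences rest on S11. Without it the unit passed the threshold, with differences of 2.01, 6.40 and 5.79. As the unit was chosen for its values at 0 and S11 is the CIZ1 null adapted line at 0, these calls are no support for a difference. Rpl39 itself, on the X chromosome, was at 577 to 766 FPKM in WT primary and 611 to 981 FPKM in WT adapted samples, and the difference of 0.27 ± 0.22 (adjusted p = 0.438 by limma) was not called.

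Rps4l, an autosomal copy of the X-linked small-subunit gene Rps4x, lies on chromosome 6 and its 2 units moved together. The unit XLOC_047395 was at 33.6, 39.2 and 34.1 FPKM in WT primary samples and at 38.4, 37.4 and 46.7 FPKM in S04, S05 and S06. In adapted lines it was at 10.9, 6.92 and 0 FPKM in S07, S08 and S09 and at 31.2, 0 and 0 FPKM in S10, S11 and S12. S10 was thus the nearest to the primary samples, and the other 5 lines were at 10.9 FPKM or less. The differences of -3.01 ± 0.88 in WT and -3.71 ± 1.32 in CIZ1 null cells were not called (adjusted p = 0.0772 and 0.129 by limma). Of the fits that left out 1 sample the unit passed the threshold in 1 of 6 in each genotype, at -5.38 without S10 and at -1.91 without S09. The unit was chosen for its values at 0 and S10 is the line that was not low, so that these calls are no support either. Rps4x was at 767 to 880 FPKM in WT primary samples and at 1167, 766 and 1082 FPKM in WT adapted lines, with a difference of 0.27 ± 0.19 (adjusted p = 0.378 by limma). The units at 0 are of genes with close copies elsewhere in the genome, and whether their reads were counted at another locus was not tested.

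Rpl17, a protein near the exit tunnel, split the samples without a 0, and was picked out after its values were seen. It was at 206, 493 and 238 FPKM in WT primary samples, 163, 200 and 231 FPKM in S04, S05 and S06, and 169, 165 and 774 FPKM in WT adapted lines. In CIZ1 null adapted lines it was at 184, 830 and 1086 FPKM, so that S09, S11 and S12 were at more than 1.5 times the level of every other sample. The CIZ1 null difference of 1.48 ± 0.65 was not called (adjusted p = 0.187 by limma), and without S10 it was 2.27 and passed the threshold. S10 is the line at the level of the primary cells and the unit was picked for its values, so that this call supports nothing. The unit shares its coordinates with units of BC031181 and Lipg. Rpl41 likewise shares its coordinates with a unit named Smarcc2 that had a mean of 4310 FPKM, and the ratio of Rpl41 to that unit was 0.500 to 0.591 in all 15 samples. The level of Rpl41 alone is therefore uncertain. In all, 53 of the 89 members share their coordinates with another unit.

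**Figure D5:**
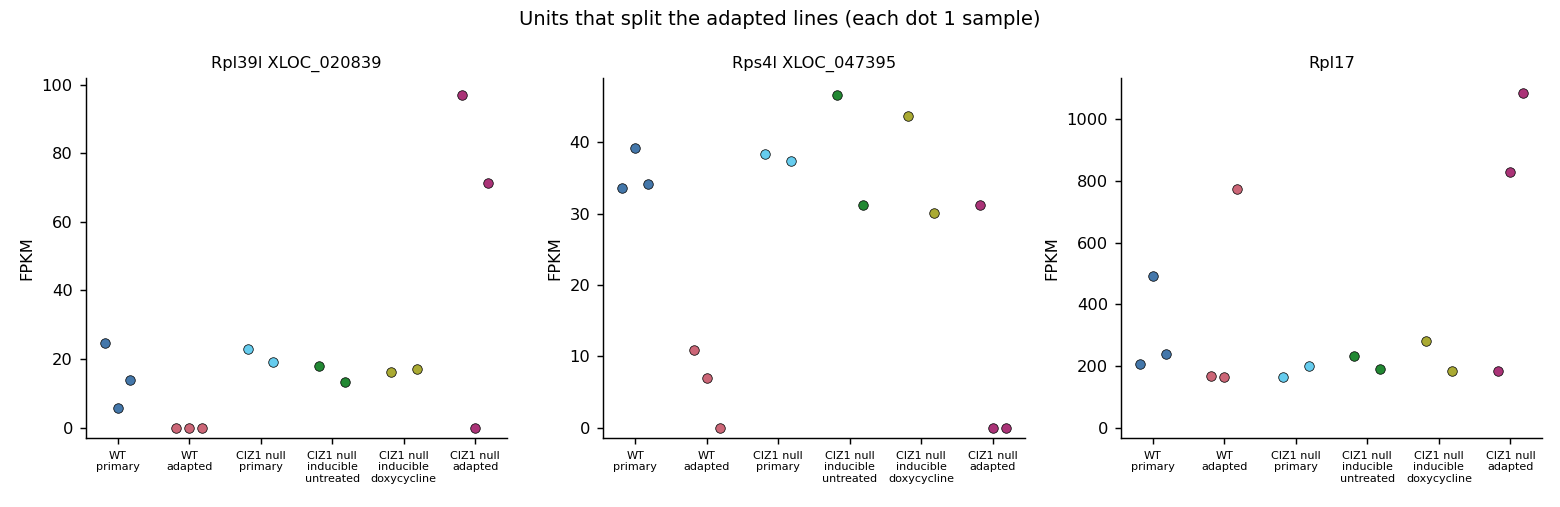
FPKM of Rpl39l, Rps4l and Rpl17 by group, with each dot a sample. Rpl39l was at 0 in 4 adapted lines and at 71.4 and 97.0 FPKM in the other 2, Rps4l was at 0 in 3 adapted lines, and Rpl17 was at 774 FPKM or more in 3.

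None of the other paralogue pairs named here was called. Rpl10l, the autosomal copy of Rpl10 known from male germ cells, was at 0 in all 15 samples, and the 2 units of Rpl3l, the striated-muscle copy of Rpl3, were at or near 0. Rpl10, which joins the large subunit late in its maturation, was at 1108 to 1303 FPKM in WT primary and at 1116 to 1402 FPKM in WT adapted samples, and Rpl3, which reaches towards the peptidyl transferase centre, was at 692 to 847 and 782 to 978 FPKM, with neither called. Rps27 was at 876 to 1145 FPKM in WT primary samples and at 738 to 1108 FPKM in WT adapted lines, and its p53-responsive paralogue Rps27l at 676 to 708 and 427 to 911 FPKM. Among CIZ1 null adapted lines Rps27 was highest in S11, at 1845 FPKM, where Rps27l was lowest, at 408 FPKM. Its difference of -0.54 ± 0.22 in CIZ1 null adaptation was not called (adjusted p = 0.164 by limma).

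Members with known roles outside or beside the ribosome were on both sides of 0. Rpl5, the partner of Rpl11, was at 460 to 582 FPKM in WT primary and 541 to 743 FPKM in WT adapted samples, a difference of 0.32 ± 0.18 (adjusted p = 0.269 by limma), and at 447 to 561 and 608 to 721 FPKM in CIZ1 null cells, a difference of 0.35 ± 0.18 (adjusted p = 0.240). The 2 proteins of the same particle thus lay on opposite sides of 0 in both genotypes. Rps3, which lines the messenger RNA entry and also acts in DNA repair, was at 866 to 1181 FPKM in WT primary and 565 to 814 FPKM in WT adapted samples (-0.62 ± 0.20, adjusted p = 0.0985 by limma). Rps6 was at 753 to 900 and 616 to 744 FPKM (-0.24 ± 0.15, adjusted p = 0.322 by limma), and Rpsa at 1596 to 2456 and 1409 to 2543 FPKM (-0.03 ± 0.27, adjusted p = 0.959). Rpl38, needed for translation of some Hox messenger RNAs, was at 1281 to 1359 and 951 to 1818 FPKM, and Rpl22, which many cells can do without, had its main unit at 741 to 853 and 553 to 769 FPKM. Rpl36a was at 748 to 829 and 712 to 1011 FPKM. Rps24, Rpl35 and Rps16 were at 1589 to 1861, 1843 to 2199 and 1897 to 2500 FPKM in WT primary and at 1595 to 1976, 1290 to 1693 and 1103 to 1706 FPKM in WT adapted samples, and none of them was called.

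The 2 subunits gave like values. In WT adaptation the median difference was -0.23 over 52 large-subunit units, with 37 below 0 and 5 called, and -0.23 over 33 small-subunit units, with 27 below 0 and 2 called. For CIZ1 null cells the medians were -0.14 over 53 and -0.20 over 33 units. By the letters at the start, the 36 units tested whose gene had a pyrimidine run had a median of -0.25 in WT, with 6 called, and the 23 without had a median of -0.04, with 0 called. The CIZ1 null medians were -0.20 over 37 units and -0.07 over 23, with 1 and 0 called. No test was made of this difference, and the windows of the other symbols were not examined. Over all units 6.68% were called lower in WT and 3.47% in CIZ1 null adaptation. Of the WT calls with a run, Rpl11, Rpl18, Rplp2, Rps15a and Rps19 lie on chromosomes 4 and 7, where other units were lower too. The part of the chromosome in this split was not tested.

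No member was called for the loss of CIZ1 itself. In primary cells 0 of 86 members were called and 0.00511% of all units, which is Ciz1 alone. The median difference between CIZ1 null and WT primary cells was 0.07, beside -0.0002 over all units, and 75 of 86 members lay above 0. When single samples were left out, the median of members ranged from -0.045 to 0.175, so its sign rests on single samples. The median SE of a member was 0.15, and 0 members had an unadjusted p under 0.05 beside 1225 of 19566 units. In adapted cells 0 of 86 members and 0.00501% of all units were called, again Ciz1 alone. The median difference of members was 0.11 with a median SE of 0.26, beside 0.03 over all units. At an unadjusted p under 0.05 there were 2 members, Rpl39l and Rpl24, and 804 of all 19976 units. Rpl24, on chromosome 16 and described after its values were seen, was at 888, 684 and 729 FPKM in WT adapted lines and at 980, 1241 and 1170 FPKM in CIZ1 null adapted lines, so that the groups do not overlap, and the difference of 0.56 ± 0.21 has an adjusted p of 0.998 by limma. The comparisons share groups with those of adaptation and are not independent of them.

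Doxycycline had 0 calls among 86 members and 0.0101% among all 19768 units tested by limma. The median difference of members was -0.08, beside -0.006 over all units, with a median SE of 0.25 (n = 2 per group). At an unadjusted p under 0.05 there were 0 members and 347 units. The study made these 4 samples from 2 embryos with and without doxycycline. S06 is from one of them, and the sources used here do not say which embryo S14 or S15 is from, so no fit by embryo was made and the spread holds any difference between the embryos. Rpl11 was at 1445 and 928 FPKM in untreated S06 and S13 and at 1258 and 970 FPKM in treated S14 and S15, Rplp2 at 1947 and 1084 FPKM and at 1764 and 1138 FPKM, and Rps19 at 2662 and 1642 FPKM and at 2215 and 1500 FPKM. In all 3 genes S06 and S14 were high and S13 and S15 low. The erythroid marker sum split the samples in the same way, at 44.4 and 43.9 FPKM in S06 and S14 and at 5.95 and 4.72 FPKM in S13 and S15, and its part in these values was not tested. Relative depth split them alike, at 1.45 and 1.17 in S06 and S14 and at 0.481 and 0.873 in S13 and S15. Its part was not tested either.

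The summed FPKM of the 89 members was 88604 ± 8574 (SD, n = 3) in WT primary and 76013 ± 7423 in WT adapted samples, 93730 ± 15459 in CIZ1 null primary and 82763 ± 13846 in CIZ1 null adapted samples. Each WT adapted line was below each WT primary sample, by the least between S09 and S02, at 77523, 67950 and 82565 against 98434, 82662 and 84716 FPKM. Among CIZ1 null samples S11, at 96768, was above S04 and S05, at 80496 and 89972, and S12, at 82441, above S04. As a share of each sample's total the members held 14.3%, 13.1% and 13.3% in WT primary samples and 14.6%, 12.3% and 14.8% in WT adapted lines, so that the order is lost. Totals were 630108 to 690513 FPKM in WT primary samples and 530202 to 559435 FPKM in WT adapted lines. Units named as ribosomal protein pseudogenes, 330 in number, summed to 4869 to 9244 FPKM per sample, and those tested had medians of -0.44 in WT adaptation (133 units, 15 lower and 2 higher) and -0.41 in CIZ1 null adaptation (128 units, 10 lower and 0 higher).

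Lists of other genes of the ribosome pathway were counted in the same way. For these lists and the pseudogenes above, counts and medians are those of FPKM as deposited, and none is given under another scaling. Over all units 6.68% were called lower and 2.87% higher in WT adaptation, with a median of -0.05. In CIZ1 null adaptation it was 3.47% and 1.40%, with a median of -0.04. Of 11 units of ribosomal proteins that the naming rule misses, such as Fau and Rps3a1, 2 were called higher in WT adaptation and 0 in any other comparison, with medians of -0.11 in WT and -0.18 in CIZ1 null adaptation. Both are units of Rps27rt, a retrogene of Rps27, and the higher of them was at 61.6, 67.0 and 92.5 FPKM in WT primary samples and at 326, 183 and 346 FPKM in WT adapted lines, a difference of 1.90 ± 0.30 (adjusted p = 0.0200 by limma). Of 27 units of translation factors and other messenger RNAs with a 5′ tract, 1 was called, Eif3e, a subunit of initiation factor 3, which rose by 1.04 ± 0.15 in WT adaptation (adjusted p = 0.0175 by limma).

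Of 58 units of ribosome biogenesis factors tested in WT adaptation 52 were below 0 with a median of -0.38, and 0 were called. For CIZ1 null adaptation 41 of 57 were below 0, with a median of -0.33, and 2 fell, Rrp9 (-1.39 ± 0.22, adjusted p = 0.0290 by limma) and Bysl (-0.79 ± 0.16, adjusted p = 0.0483), which act in maturation of the small subunit. Of 19 units of RNA polymerase I and its factors tested in WT adaptation, 1 fell, Cd3eap on chromosome 7 (-1.06 ± 0.22, adjusted p = 0.0383 by limma), and in CIZ1 null adaptation 0 of 19, with medians of -0.12 and -0.22. Of 23 units of mTOR and MYC regulators tested, 4 were called lower in WT adaptation and 1 in CIZ1 null adaptation, with medians of -0.19 and -0.12. Akt1s1, an inhibitor of mTOR complex 1 on chromosome 7, fell by 1.51 ± 0.18 in WT cells (adjusted p = 0.0125 by limma), and in CIZ1 null cells its difference was -1.74 ± 0.29 (adjusted p = 0.0330 by limma). Eif4ebp1, a repressor of cap-dependent translation, fell by 1.23 ± 0.19 in WT cells (adjusted p = 0.0203 by limma), and the other 2 calls are units of Larp1, which binds the 5′ tract, at -0.85 ± 0.20 and -0.76 ± 0.17 (adjusted p = 0.0489 and 0.0458).

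Of 14 units in the list of the 5S particle and p53, 1 was called in WT adaptation, Rpl11, and 5 in CIZ1 null adaptation, where Rpl11 and 2 units of Cdkn1a fell and 2 units of Mdm4, a p53 inhibitor, rose. The higher unit of Cdkn1a, the cell cycle inhibitor p21, fell by 1.14 ± 0.21 (adjusted p = 0.0377 by limma). The medians of that list were -0.33 and -0.08. Mitochondrial ribosomal proteins, which serve another ribosome, had medians of -0.24 in WT adaptation (109 units, 9 lower and 1 higher) and -0.26 in CIZ1 null adaptation (108 units, 5 lower and 0 higher). In loss of CIZ1, doxycycline and the difference of adaptation, 0 units of these lists were called apart from 1 pseudogene unit, Rpl34-ps2, which was listed at 0 in S06 and S13 and had a mean of 106 FPKM in S14 and S15.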

How the data were processed

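Per the labels and the study's methods, the authors trimmed reads with cutadapt 1.8.3, aligned them to GRCm38 with HISAT2 2.0.5, assembled and merged transcripts with Cufflinks and normalised them with Cuffnorm. The deposited FPKM of each assembled unit are the values used here. The library kit is not given as stranded. A deposited table of Cuffdiff 2.2.1 comparisons holds only group means, fold changes, p-values and q-values and was not used. No 2 of the 15 samples had identical values.

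The members and the gene lists were chosen with earlier results of these data known. Groups came from the labels. log2(FPKM + 1) was compared with limma 3.58.1 in R 4.3.3 (eBayes with trend), with only the samples of a comparison in the fit, on units with a mean of at least 1 FPKM over them. A difference on this scale understates that of low units. Benjamini-Hochberg adjustment was over all units tested, with a threshold of 0.05. Fits were tested on simulated data. P-values measure the spread between populations, which for 12 samples are from single embryos. The summed FPKM and the chromosome medians are given without a p-value, as the members were chosen with results known.

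Named members are those called, those at 0 beside at least 10 FPKM, the 8 with the highest mean, and a list of genes with known roles or paralogues, and others are said to be picked after their values were seen. Some single genes are not reported here. Alternatives were a pseudocount of 0.1, no filter or a mean of 5 FPKM, quantile normalization, TPM, array weights, the 4 groups in a single fit, other sets of CIZ1 null primary samples, leaving out each sample, and the embryo as a block. For the pairing by embryo the correlations of deviations from the group means were 0.21, 0.15 and -0.01 in WT and -0.02, 0.11 and 0.09 in CIZ1 null pairs, over 20046 units.

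Absolute depth was not used here, so no interval for counting error is given. Relative depth came from the ratio of low values under 0.3 FPKM. Start windows came from RefSeq (GRCm38.p6), and coordinates of units are those of the table, in GRCm38. Figures were drawn with Matplotlib 3.10.9 in Python 3.11.15.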

Additional observations from a re-analysis of the deposited data

How the results depend on the processing

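The count of members called in WT adaptation, 7 with FPKM as deposited, was 1 without a filter on FPKM, 12 with array weights and 1 with the embryo as a replicate block, and 0 to 11 when single samples were left out. It was within 1.5 times of 7 under the other alternatives, although quantile normalization and TPM turned part of the calls to higher. The count in CIZ1 null adaptation, 2, was 0 without a filter, with TPM, with the embryo as a replicate block and with S04 and S05 as the only primary samples, 1 with quantile normalization or with S13 added, 4 with array weights and 6 with the 4 groups in a single fit, and 0 to 6 when single samples were left out. Both CIZ1 loss in adapted lines and the difference of adaptation between genotypes had 0 to 1 calls when single samples were left out, the 1 without S11. Loss of CIZ1 in primary cells and doxycycline had 0 in every setting run. The share of all units called in each setting is not given here, so these swings are not shown to be particular to the members. The log2 difference of the summed FPKM was -0.22 in WT and -0.18 in CIZ1 null adaptation and turned to 0.0310 and 0.0638 with TPM. The CIZ1 null value with TPM includes S04, whose total of 700699 FPKM was 630518 FPKM without Cbx3-ps5. The part of this unit in the CIZ1 null results with TPM was not tested. For loss of CIZ1 it was 0.07 in primary and 0.11 in adapted cells, with ranges of -0.0538 to 0.176 and -0.00572 to 0.237 when single samples were left out, below 0 without S06 and without S11. None of the 9 called differences changed sign in any setting. The cause of these shifts was not tested. With 3 samples a group, differences near the median SE of a member are not resolved, and absolute depth could not be set beside them. Relative depth was lower in most adapted lines than in their primary samples, and its part was not tested.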
